A study of Mus musculus with 6 samples.

Results

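The genes described here are the cytotoxic granule genes of mouse bone marrow-derived macrophages: 7 granzymes (Gzma, Gzmb, Gzmc, Gzmd, Gzme, Gzmf and Gzmg), perforin (Prf1) and serglycin (Srgn). They were taken by symbol from the deposited expression table, and all 9 were found among its 55401 genes. They were chosen by earlier values of the same libraries, the difference between Mettl3 knockout and wild type, so that difference is given below for each gene as a description, without a p-value. The study compared 3 RNA sequencing libraries labelled Mettl3-/- (KO) with 3 labelled wild type (WT). Mettl3 is the methyltransferase that places N6-methyladenosine on messenger RNA. Cells of both groups were grown from the marrow of C57BL/6 mice in M-CSF, the macrophage growth factor, at 40 ng/mL with 10% fetal bovine serum for 7 days. The labels place these conditions ahead of a treatment that they do not name, and give no age for the mice. The sources used here do not say how the knockout was made or in which cells it acts. Whether replicates were separate mice or cultures is not in the labels. Each p-value therefore sets a difference against the spread between these libraries, which may be technical.

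Granzymes are serine proteases that cytotoxic T cells and natural killer (NK) cells store in secretory granules and release onto a target cell. Perforin, released with them, forms pores through which granzymes reach the target's cytosol, and serglycin is the proteoglycan on whose sugar chains the granule proteases are packed. In mice the genes of granzyme B and its relatives stand side by side on chromosome 14, beside other granule protease genes, whereas granzyme A, perforin and serglycin are encoded elsewhere. Serglycin is also a common granule and secretory proteoglycan of myeloid cells, macrophages included.

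Library totals ran from 68145877 to 77997742 estimated counts in the libraries labelled KO and from 67280390 to 68658821 in WT. Mettl3 itself did not follow its label, with 2.504, 2.56 and 2.93 FPKM there and 2.62, 2.91 and 2.26 FPKM in WT (log2 fold change 0.02, SE 0.114, edgeR adjusted p = 0.93). FPKM is the number of mapped fragments scaled for gene length and library size. Because each value sums over all exons of a gene, a deleted exon cannot be seen in it, and directions are given for the libraries labelled KO. Of 12 macrophage markers, all were above 0 in every library, 4 called higher and 3 lower. Their summed FPKM was 9913 to 10055 in the libraries labelled KO and 17538 to 17873 in WT, a ratio of 0.565. Most of it was the lysozyme gene Lyz2, called lower at 6012 ± 62.5 FPKM in the libraries labelled KO and 14189 ± 212 FPKM in WT (edgeR adjusted p = 3.33e-07). The ratio therefore follows Lyz2 and does not describe the other markers, of which 4 were called higher. Adgre1, the F4/80 antigen gene, was called lower (log2 fold change -0.33, edgeR adjusted p = 0.000368), as was the chemokine receptor gene Cx3cr1 (-0.33, edgeR adjusted p = 0.0249), whose call needed every library except WT replicate 3 (edgeR adjusted p from 0.0731 to 0.0809 with another left out). Csf1r, the M-CSF receptor gene, was called higher at 687 ± 5.61 FPKM in the libraries labelled KO and 569 ± 1.15 FPKM in WT (edgeR adjusted p = 3.14e-05; SD, n = 3 each). Mertk was another of the 4 markers called higher (log2 fold change 0.32, edgeR adjusted p = 0.000267).

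The promoters of the granzymes with the largest and the smallest differences, of granzyme B and of perforin are shown first, because the closest neighbours on chromosome 14 share most of these letters. Each run is 300 bases of RefSeq sequence (build GRCm38.p6), 5′ to 3′ on the gene's own strand, from 250 bases before a RefSeq transcript start to 50 bases after it. Gzmg is chr14:56159530-56159829, Gzmd is chr14:56132544-56132843, Gzmf is chr14:56211358-56211657 and Gzmb is chr14:56262285-56262584, all on the minus strand, and Prf1 is chr10:61297586-61297885 on the plus strand. The Gzmb window lies wholly upstream of the gene start given in the deposited table. Capitals mark matches on either strand to 3 motifs: TGTGGT (the core bound by RUNX factors), TGACGTCA (the cAMP response element, CRE) and TGANTCA (the AP-1 motif).
Gzmg: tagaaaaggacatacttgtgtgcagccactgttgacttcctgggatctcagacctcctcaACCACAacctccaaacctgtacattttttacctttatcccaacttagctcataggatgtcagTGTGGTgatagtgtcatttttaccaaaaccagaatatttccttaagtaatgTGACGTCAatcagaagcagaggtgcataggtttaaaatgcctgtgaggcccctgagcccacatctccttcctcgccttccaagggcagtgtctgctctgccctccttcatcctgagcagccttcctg
Gzmd: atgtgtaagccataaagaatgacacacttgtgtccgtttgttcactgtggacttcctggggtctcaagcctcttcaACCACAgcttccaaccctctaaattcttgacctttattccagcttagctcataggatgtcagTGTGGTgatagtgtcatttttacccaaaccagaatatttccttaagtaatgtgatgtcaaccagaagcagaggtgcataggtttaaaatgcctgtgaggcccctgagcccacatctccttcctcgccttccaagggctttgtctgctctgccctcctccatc
Gzmf: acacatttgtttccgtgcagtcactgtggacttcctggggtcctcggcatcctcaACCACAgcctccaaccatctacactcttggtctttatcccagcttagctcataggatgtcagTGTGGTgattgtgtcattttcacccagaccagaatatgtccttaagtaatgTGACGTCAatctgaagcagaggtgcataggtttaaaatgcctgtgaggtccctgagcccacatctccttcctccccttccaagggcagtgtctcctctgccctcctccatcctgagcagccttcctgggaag
Gzmb: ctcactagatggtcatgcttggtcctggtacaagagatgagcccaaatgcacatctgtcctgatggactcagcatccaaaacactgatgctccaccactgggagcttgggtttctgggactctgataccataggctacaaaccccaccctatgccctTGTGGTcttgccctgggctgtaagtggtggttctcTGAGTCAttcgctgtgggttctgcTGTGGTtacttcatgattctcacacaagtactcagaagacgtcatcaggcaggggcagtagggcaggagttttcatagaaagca
Prf1: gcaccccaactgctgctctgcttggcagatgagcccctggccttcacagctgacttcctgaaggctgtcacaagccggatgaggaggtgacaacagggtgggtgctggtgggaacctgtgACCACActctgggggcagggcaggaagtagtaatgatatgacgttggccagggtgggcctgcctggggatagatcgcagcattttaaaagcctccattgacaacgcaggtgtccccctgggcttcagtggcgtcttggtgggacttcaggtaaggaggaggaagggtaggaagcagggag

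The RUNX core was found in a window of each of the 9 genes, against 16.8% of 32817 mouse promoter windows of the same length. The 5 granzymes from Gzmc to Gzmg each held it at a pair of places, at -190 and -128 from the start in Gzmg, at -174 and -112 in Gzmd and at -195 and -133 in Gzmf. In Gzmb it stood at -93 and -34, and in Prf1 at -130. The CRE was intact in Gzmc, Gzmf and Gzmg (at -57, -82 and -77), against 1.79% of all windows. Gzmd and Gzme each differed from it by 1 base, C4T in Gzmd and G5A in Gzme, with positions counted from 1 at the 5′ end of the match and the intact motif's base given first. Among the 9 genes the AP-1 motif was matched in Gzmb, at -58, against 7.81% of all windows. Of the 7 other motifs searched on both strands, GAGGAAG (ETS factors of the PU.1 type) was found in Gzmc, Gzmd, Gzme, Gzmf, Gzmg and Prf1, against 13.6% of windows. TTCNNNGAA (the STAT element, GAS) was found in Gzmb, against 8.29%, and GAAANNGAA (IRF) in Gzma and Srgn, against 8.55%. GGAAAA (NFAT) was found in Gzma and Srgn, against 23.3%, where it overlapped an IRF match in each gene, and TATAAA in Srgn, against 13.6%. TTGCNNAA (C/EBP), in 10.8% of windows, and AGGTGTGA (T-box), in 1.27%, were not in these 10 windows, of which Srgn has a pair. A match describes the letters and is neither a bound site nor a cause, and the shared matches of Gzmc to Gzmg come from related sequences.

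In the libraries labelled KO, 7 of the 9 genes were called higher and 0 lower at an adjusted p under 0.05 (edgeR's quasi-likelihood test, adjusted over all 16256 genes tested). The background is 12.7% of tested genes called in either direction and 7.01% called higher. Because the genes were chosen on this contrast, nothing is read from their count. All 9 passed the filter on low counts. The call count was 6 with any 1 library left out, and the groups did not overlap in FPKM for 8 of them, each higher in the libraries labelled KO. Over all genes tested, 33.8% had groups that did not overlap, 19.1% with the libraries labelled KO above WT, and nothing is read from this count either. The median log2 fold change of the 9 genes was 0.76, against -0.005 over all genes tested.

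**Figure D1:**
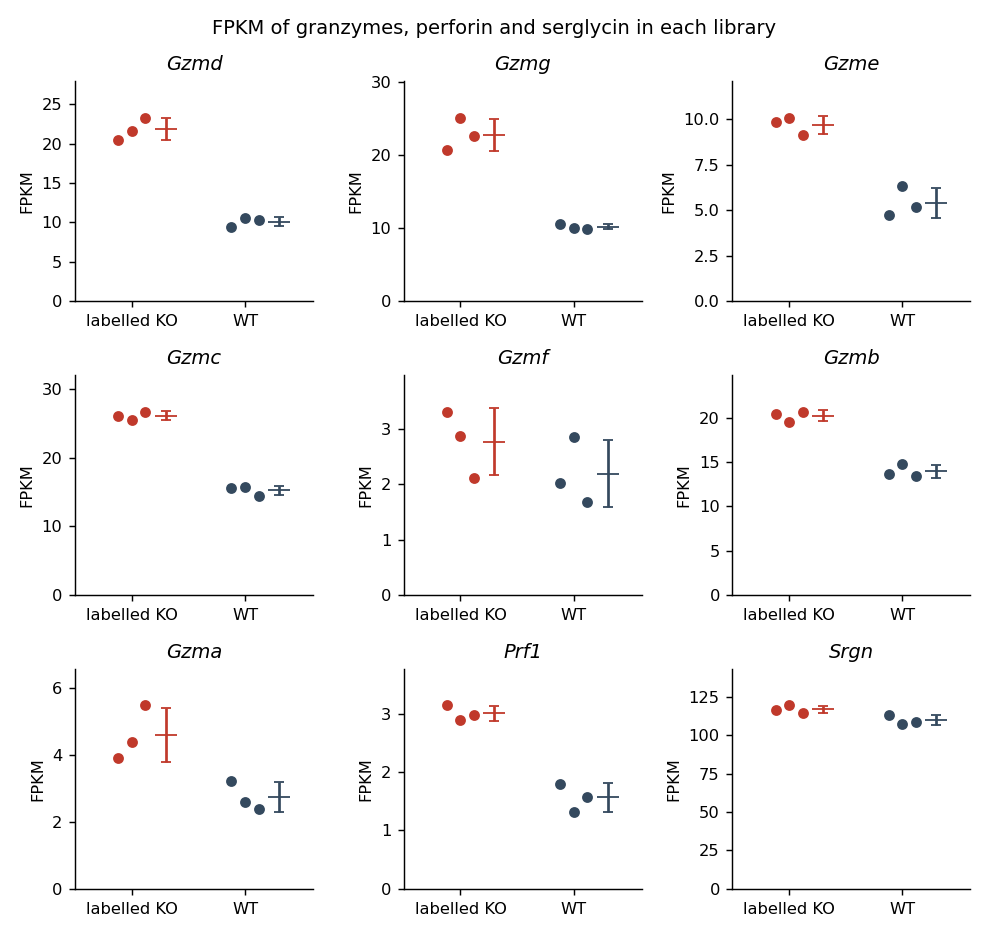
FPKM of each of the 9 genes in each library, with the 3 libraries labelled KO left of the 3 WT libraries and the mean ± SD beside each group; every vertical axis starts at 0 and has its own scale. The groups are apart for every gene except Gzmf, where 2.11 FPKM in a library labelled KO lies below 2.85 FPKM in a WT library.

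Gzmg and Gzmd showed the largest fold changes of the 9 genes. They are rodent granzymes known in mice from activated killer lymphocytes and from NK cells of the pregnant uterus. Gzmg (ENSMUSG00000040284, chromosome 14, 56156582 to 56159579, minus strand of mm10) had 20.8, 25.2 and 22.6 FPKM in the libraries labelled KO and 10.7, 10.1 and 9.97 FPKM in WT. Every library labelled KO was far above the highest WT library. The means were 22.9 ± 2.2 FPKM in the libraries labelled KO and 10.2 ± 0.369 FPKM in WT (SD, n = 3 each), a log2 fold change of 1.14 (SE 0.0868) on 697 to 1805 estimated counts. Gzmd (ENSMUSG00000059256, chromosome 14, 56129556 to 56132608, minus strand) had 20.5, 21.6 and 23.3 FPKM in the libraries labelled KO and 9.45, 10.5 and 10.35 FPKM in WT. Here too every library labelled KO was above every WT library by a wide margin. Its means were 21.8 ± 1.39 FPKM in the libraries labelled KO and 10.1 ± 0.577 FPKM in WT, a log2 fold change of 1.09 (SE 0.0786). Among all genes tested, 98.6% had a lower log2 fold change than Gzmg and 98.4% a lower one than Gzmd.

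Gzmc and Gzme, members of the same tandem array, followed with smaller differences. Gzmc (ENSMUSG00000079186, chromosome 14, 56231441 to 56234656, minus strand) had 26.1, 25.4 and 26.7 FPKM in the libraries labelled KO and 15.5, 15.7 and 14.4 FPKM in WT, the highest mean of any granzyme in both groups. Its replicates lay close together, at 26.1 ± 0.638 FPKM in labelled KO and 15.2 ± 0.684 FPKM in WT, for a log2 fold change of 0.76 (SE 0.0602). Gzme (ENSMUSG00000022156, chromosome 14, 56117626 to 56120625, minus strand) had 9.86, 10.1 and 9.13 FPKM in the libraries labelled KO and 4.75, 6.31 and 5.16 FPKM in WT. Its groups were apart although WT replicate 2 stood above the other WT libraries, and the log2 fold change was 0.82 (SE 0.124).

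Gzmf was the granzyme whose groups overlapped. Gzmf (ENSMUSG00000015441, chromosome 14, 56205263 to 56211417, minus strand) had 3.31, 2.86 and 2.11 FPKM in the libraries labelled KO and 2.02, 2.85 and 1.68 FPKM in WT. The lowest library labelled KO, replicate 3, lay below WT replicate 2. The means were 2.76 ± 0.603 FPKM in the libraries labelled KO and 2.18 ± 0.605 FPKM in WT, and the log2 fold change of 0.32 (SE 0.257) was not called. Leaving out each library in turn moved that fold change between 0.17 (without WT replicate 3) and 0.56 (without WT replicate 2), on 119 to 257 estimated counts. Gm4022, an antisense gene, overlaps 2473 bases of the Gzmf span on the opposite strand. It had an estimated count of 0 in every library, and without a stated strand setting the reads of the 2 genes cannot be told apart.

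Granzyme B, which cleaves after aspartate and activates caspases and Bid in the target cell, had a smaller fold change than its neighbours Gzmc, Gzmd, Gzme and Gzmg. Gzmb (ENSMUSG00000015437, chromosome 14, 56258838 to 56262260, minus strand) had 20.4, 19.6 and 20.7 FPKM in the libraries labelled KO and 13.7, 14.8 and 13.5 FPKM in WT. Each library labelled KO was above each WT library, with means of 20.2 ± 0.589 FPKM in labelled KO and 13.99 ± 0.738 FPKM in WT and a log2 fold change of 0.52 (SE 0.0589). Gzma encodes granzyme A, a trypsin-like protease that cleaves after basic residues. Gzma (ENSMUSG00000023132, chromosome 13, 113093825 to 113100981, minus strand) had 3.92, 4.38 and 5.48 FPKM in the libraries labelled KO and 3.23, 2.60 and 2.39 FPKM in WT. The groups were apart by less than the range within either, and the means were 4.59 ± 0.804 FPKM in the libraries labelled KO and 2.74 ± 0.438 FPKM in WT. Its log2 fold change of 0.72 (SE 0.179) was called with all 6 libraries, and the call was lost when any 1 of the 6 was left out (fold changes of 0.57 to 0.85).

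Perforin (Prf1, ENSMUSG00000037202, chromosome 10, 61297833 to 61304680, plus strand) had 3.14, 2.90 and 2.98 FPKM in the libraries labelled KO and 1.80, 1.31 and 1.58 FPKM in WT. All 3 libraries labelled KO lay above the WT libraries, at means of 3.005 ± 0.125 FPKM in labelled KO and 1.56 ± 0.245 FPKM in WT. The log2 fold change was 0.92 (SE 0.13), on 261 to 685 estimated counts. Serglycin (Srgn, ENSMUSG00000020077, chromosome 10, 62493833 to 62527451, minus strand) was by far the highest of the 9 genes, with 116.5, 119.4 and 114.5 FPKM in the libraries labelled KO and 113.4, 107 and 108.7 FPKM in WT. Its groups did not overlap, but the difference was small, at 116.8 ± 2.46 FPKM in labelled KO and 109.7 ± 3.33 FPKM in WT, and the log2 fold change of 0.07 (SE 0.03) was not called.

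**Figure D2:**
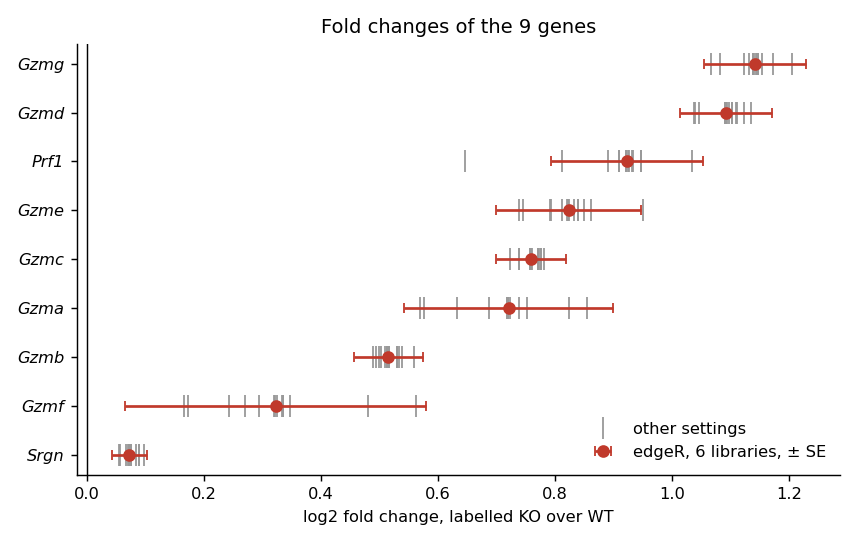
Log2 fold changes of the 9 genes, labelled KO over WT, ordered by size; points are edgeR estimates over 6 libraries with their standard error, and grey ticks are the same value under each of 14 other settings. All ticks lie above 0, from 0.06 for Srgn to 1.21 for Gzmg, and the leftmost Prf1 tick, 0.65, comes from FPKM values with a pseudocount of 1.

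The order of levels differed between the groups. In the libraries labelled KO the mean FPKM ran from Srgn through Gzmc, Gzmg, Gzmd, Gzmb, Gzme, Gzma and Prf1 down to Gzmf. The ranges of Gzmg and Gzmd, of Gzmd and Gzmb, and of Prf1 and Gzmf overlapped, so those neighbours were not apart beyond their spread. In WT the order was Srgn, Gzmc, Gzmb, Gzmg, Gzmd, Gzme, Gzma, Gzmf and Prf1, and the ranges of Gzmc and Gzmb, Gzmg and Gzmd, Gzma and Gzmf, and Gzmf and Prf1 overlapped. Gzmc had a higher mean FPKM than 89.3% of tested genes in the libraries labelled KO and than 82.8% in WT. For Prf1 these shares were 50.9% in the libraries labelled KO and 39.9% in WT.

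Added over the 7 genes, granzyme FPKM came to 104.9, 109.1 and 110 in the libraries labelled KO and to 59.33, 62.9 and 57.45 in WT, a ratio of 1.8. Gzmg made up 19.81%, 23.06% and 20.57% of that sum in the libraries labelled KO and 17.96%, 16.03% and 17.35% in WT. For Gzmd the shares averaged 20.2% ± 0.858 in the libraries labelled KO and 16.9% ± 1.06 in WT. Gzmb made up 18.7% ± 0.77 in the libraries labelled KO and 23.4% ± 0.263 in WT (SD, n = 3 each). Gzmc, at 24.1% ± 0.802 in the libraries labelled KO and 25.4% ± 0.664 in WT, differed less. The shares of these 4 genes did not overlap between groups, while those of Gzma, Gzme and Gzmf did, and the 7 shares of a library depend on each other because they sum to the whole.

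Close sequence limits how far neighbouring granzymes can be told apart. Over coding sequence, Gzmd and Gzme were identical at 93.3% of aligned positions, Gzme and Gzmg at 89.5%, Gzmd and Gzmg at 86.8% and Gzmf and Gzmg at 86.8%. Gzmb and Gzmc were identical at 75.9%, and Gzma and any other granzyme at 52.5% to 55.3%. Of the 50-base windows of the longest annotated transcript, 21.9% in Gzmd, 20.6% in Gzme, 19.8% in Gzmg, 19.4% in Gzmf and 4.14% in Gzmc occurred in a transcript of another gene. In Gzmf, 105 of its 169 shared windows were shared with the antisense gene Gm4022. No window of Gzma, Gzmb, Prf1 or Srgn was shared. Values of Gzmd to Gzmg taken gene by gene are therefore uncertain, since the way the authors' counting splits shared fragments is not given. Their sum depends less on such a split, and it averaged 57.1 ± 2.64 FPKM in the libraries labelled KO and 27.9 ± 1.59 FPKM in WT (SD, n = 3 each). Promoter windows had 93.4% identity between Gzmd and Gzme, 84.5% between Gzmf and Gzmg and 82.7% between Gzmc and Gzmd.

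**Figure D3:**
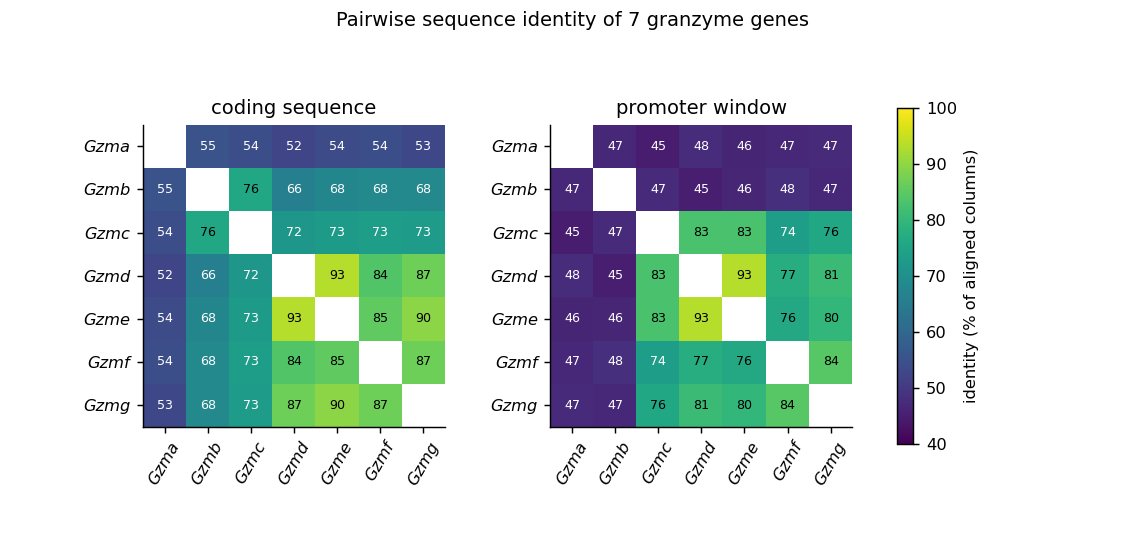
Pairwise identity of the 7 granzyme genes, in percent of aligned columns, over the coding sequence (left) and the promoter window of 300 bases (right). Gzmd and Gzme form the most similar pair in both panels, at 93.3% and 93.4%, and Gzma stands apart from the rest, at up to 55.3% over the coding sequence.

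The 6 clustered granzymes span 144.6 kb of chromosome 14 and begin 3.81 Mb beyond the end of Mettl3, so the same chromosome carries the targeted gene and most granzymes. Within 1 Mb of the cluster, 46 other genes were tested, of which 4 were called higher and 2 lower, or 13%, near the background of 12.7%. Tgm1, a transglutaminase, rose by 0.74 (2.04 ± 0.278 FPKM in labelled KO, 1.21 ± 0.0402 in WT; edgeR adjusted p = 0.0122). Khnyn, which encodes an RNA-binding antiviral cofactor in human cells, rose by 0.33 (edgeR adjusted p = 0.00167), and Zmym2, a zinc finger gene, rose by 0.27 (edgeR adjusted p = 0.00595). Parp4, of the poly(ADP-ribose) polymerase family, rose by 0.20 (edgeR adjusted p = 0.0493), a call that needed all 6 libraries (edgeR adjusted p from 0.0824 to 0.144 with 1 left out). Dhrs1, a dehydrogenase gene, fell by 0.31 (edgeR adjusted p = 0.00343), and Sdr39u1, of the same enzyme superfamily, fell by 1.04 (edgeR adjusted p = 0.0241). The Sdr39u1 call needed every library except KO replicate 1 (edgeR adjusted p from 0.0534 to 0.0813 with another left out). Within 5 Mb of Mettl3, granzymes left out, 11 of 138 tested genes were called higher and 5 lower (11.6%), and on the rest of chromosome 14 the counts were 17 and 28 of 433 (10.4%).

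**Figure D4:**
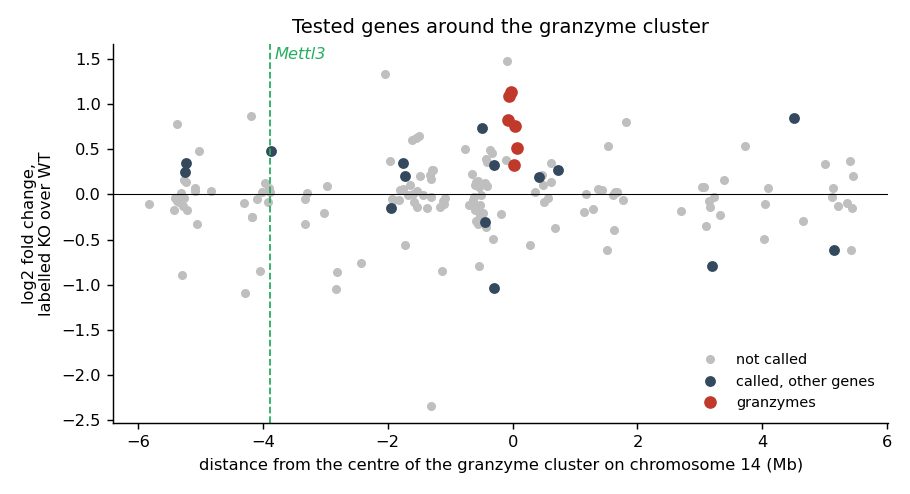
Log2 fold change, labelled KO over WT, of tested genes within 6 Mb of the centre of the granzyme cluster on chromosome 14, against distance from that centre in Mb, with the position of Mettl3 as a dashed line. The 6 granzymes (red) lie between 0.32 and 1.14, and called genes among their neighbours within 1 Mb lie on either side of 0, from -1.04 to 0.74.

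The other granule protease genes were near or below the limit of the test. Gzmk had 0.617, 0.498 and 0.765 FPKM in the libraries labelled KO and 0.769, 0.374 and 0.101 FPKM in WT, and Gzmm had 0.233 ± 0.0746 FPKM in labelled KO and 0.192 ± 0.0894 FPKM in WT (SD, n = 3 each). Both overlapped between groups, and neither was called (edgeR adjusted p = 0.642 and 0.815). The sign of the Gzmm difference turned without KO replicate 2 or WT replicate 2, at log2 fold changes of -0.02 and -0.08. Gzmn was listed above 0 in WT replicate 3 alone. Cathepsin G (Ctsg), the neutrophil granule protease of the same chromosome 14 region, had 1.06, 1.39 and 1.04 FPKM in the libraries labelled KO and 0.574, 0.136 and 0.5075 FPKM in WT. Its groups were apart, and its log2 fold change of 1.48 (SE 0.499) did not pass (edgeR adjusted p = 0.115; 0.0336 with DESeq2; 0.0445 with limma on FPKM plus 1). Mcpt8, a basophil protease, had 0.180 ± 0.0993 FPKM in labelled KO and 0.138 ± 0.0782 FPKM in WT and was not called (edgeR adjusted p = 0.791), and its sign turned without KO replicate 3 or WT replicate 3, at -0.02 and -0.005. The mast cell chymase Cma1 was above 0 in KO replicate 2 alone, and the 5 remaining proteases of that list were at 0 in every library.

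Genes that mature and sort granzymes did not move one way. Of 9, 3 were called higher and 2 lower (2 or 3 and 0 or 1 with any 1 library left out), with a median log2 fold change of 0.06. Ctsc, the dipeptidyl peptidase that removes the activation dipeptide of granzymes, had 245, 245.8 and 245.7 FPKM in the libraries labelled KO and 168.6, 166.6 and 172.1 FPKM in WT. It rose by 0.52 (SE 0.0149, edgeR adjusted p = 2.16e-05), with no overlap between groups. Gnptab, the catalytic chain of the enzyme that starts the mannose 6-phosphate sorting tag, rose by 0.63 to 32.02 ± 4.81 FPKM in labelled KO, against 20.4 ± 0.0889 FPKM in WT (edgeR adjusted p = 0.0121). Gnptg, the gamma chain of that enzyme, fell by 0.41 (edgeR adjusted p = 0.0145), a call lost without KO replicate 3, WT replicate 1 or WT replicate 3 (edgeR adjusted p from 0.0513 to 0.0531). Ctsl, a lysosomal cysteine protease, rose by 0.30 (edgeR adjusted p = 0.0151), a call lost without WT replicate 1 or 3 (edgeR adjusted p of 0.0572 and 0.0585). The mannose 6-phosphate receptor genes M6pr and Igf2r were not called.

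Among 11 tested genes for the sugar chains that serglycin carries, 3 were called higher and 1 lower (2 and 1 with any 1 library left out), with a median of 0.12. Chst12, a chondroitin 4-sulfotransferase, rose by 0.55 to 29.3 ± 0.788 FPKM in labelled KO, against 19.8 ± 0.276 FPKM in WT (edgeR adjusted p = 0.00038). Chsy1, a chondroitin synthase, rose by 0.76 to 10.9 ± 1.13 FPKM, against 6.39 ± 0.312 FPKM in WT (edgeR adjusted p = 0.00262). The xylosyltransferases, which attach the first sugar, went opposite ways. Xylt2 fell by 0.36 to 55.01 ± 0.883 FPKM in labelled KO, against 69.7 ± 1.9 FPKM in WT (edgeR adjusted p = 0.000636). Xylt1, at 4.45 ± 0.161 FPKM in labelled KO and 3.81 ± 0.156 FPKM in WT, rose by 0.21 (edgeR adjusted p = 0.0422), a call that needed all 6 libraries (edgeR adjusted p from 0.0577 to 0.133 with 1 left out).

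The machinery that releases cytotoxic granules had 1 gene called higher and 3 lower of 12 tested (0 or 1 and 2 or 3 with any 1 library left out), with a median of -0.07. Stx11, a syntaxin needed for granule fusion, rose by 0.38 (edgeR adjusted p = 0.0358), a call that needed every library except WT replicate 2 (edgeR adjusted p from 0.0738 to 0.108 with another left out). Lamp2 and Lamp1 encode lysosomal membrane proteins, and Arl8b a GTPase of lysosome transport. Lamp2 fell by 0.10 (edgeR adjusted p = 0.00405), Arl8b by 0.15 (edgeR adjusted p = 0.0123) and Lamp1 by 0.06 (edgeR adjusted p = 0.0319). The Lamp1 call needed every library except WT replicate 3 (edgeR adjusted p from 0.0532 to 0.114 with another left out). Unc13d and Rab27a, which prime and dock the granules, were not called, at log2 fold changes of -0.02 and 0.04.

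Of 7 tested serpins, among them the inhibitors of granzymes, 3 were called higher and 1 lower (2 and 1 with any 1 library left out), with a median of 0.48. Serpina3g had 20.65, 19.85 and 20.58 FPKM in the libraries labelled KO and 11.15, 10.22 and 10.02 FPKM in WT, so the groups were far apart, and it rose by 0.94 (SE 0.0555, edgeR adjusted p = 0.000248). Its near relative Serpina3f rose by 1.06 (edgeR adjusted p = 0.00484), and the mouse Serpina3 genes are close paralogs that can share reads. Serpinb6b, an inhibitor of granzyme A in mice, rose by 0.49 (edgeR adjusted p = 0.0205), a call that needed all 6 libraries (edgeR adjusted p from 0.059 to 0.0729 with 1 left out). Serpinb6a fell by 0.55 to 32.5 ± 0.637 FPKM in labelled KO, against 47.1 ± 2.62 FPKM in WT (edgeR adjusted p = 0.000668). Serpinb9, the inhibitor of granzyme B, was not called, at 8.67 ± 0.388 FPKM in labelled KO and 8.34 ± 0.514 FPKM in WT. Of 19 tested granzyme substrates, 3 were called higher and 2 lower (2 or 3 and 0 or 1 with any 1 library left out), with a median of 0.06. Hmgb2, a chromatin protein cut by granzyme A, rose by 0.29 (edgeR adjusted p = 0.0109). Casp8, an initiator caspase, rose by 0.14 (edgeR adjusted p = 0.039), a call that needed every library except KO replicate 2 (edgeR adjusted p from 0.0939 to 0.124 with another left out). Gsdme, a pore-forming gasdermin that granzyme B can cut, fell by 0.51 (edgeR adjusted p = 0.0354), a call that needed all 6 libraries (edgeR adjusted p from 0.0611 to 0.11 with 1 left out). Mpeg1, the macrophage relative of perforin, had 1165 ± 0.938 FPKM in labelled KO and 1145 ± 4.91 FPKM in WT and was not called (log2 fold change 0.01, edgeR adjusted p = 0.465).

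Transcription factors known to act on granzyme and perforin genes in lymphocytes were mixed: 4 of 21 were called higher and 2 lower (2 to 4 and 1 or 2 with any 1 library left out), with a median of 0.23. Nfil3, a factor needed for NK cell development, had 31.65, 32.49 and 33.15 FPKM in the libraries labelled KO and 20.06, 20.52 and 19.9 FPKM in WT, and rose by 0.67 (edgeR adjusted p = 0.000193). Id2, an inhibitor of E proteins, fell by 0.61 to 26.8 ± 1.13 FPKM in labelled KO, against 40.4 ± 1.95 FPKM in WT (edgeR adjusted p = 0.000837). Hif1a, the oxygen-regulated factor, rose by 0.21 (edgeR adjusted p = 0.00213). Fos rose by 0.26 (edgeR adjusted p = 0.017), a call lost without KO replicate 1, KO replicate 3, WT replicate 2 or WT replicate 3 (edgeR adjusted p from 0.0565 to 0.0677). Of the factors central to the cytotoxic programme, Eomes, Tbx21 and Runx3 were low and not called. Their groups did not overlap in FPKM, each higher in the libraries labelled KO, as for 19.1% of all genes tested. Eomes was at 0.496 ± 0.0876 FPKM in labelled KO and 0.3095 ± 0.0163 FPKM in WT (edgeR adjusted p = 0.0675). Tbx21 was at 0.717 ± 0.0932 FPKM in labelled KO and 0.570 ± 0.0835 FPKM in WT (edgeR adjusted p = 0.349). Runx3, one of the RUNX factors, was at 1.09 ± 0.277 FPKM in labelled KO and 0.726 ± 0.0499 FPKM in WT (edgeR adjusted p = 0.106). The list for the interleukin 2 and 15 axis, which induces granzymes in lymphocytes, also held genes of interleukins 12 and 18. Of its 11 tested genes, 1 was called higher (1 or 2 with any 1 library left out), Il12rb1, by 0.45 (edgeR adjusted p = 0.000629). Il12rb1 encodes a chain of the interleukin 12 receptor. With all 6 libraries, no tested gene of interleukin 2 or 15 or of their receptors was called.

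Granzymes and perforin are best known from T and NK cells, so the markers of these cells were read in the same libraries. All 23 were above 0 in every library, and 1, the NK receptor gene Klrk1, was called higher, by 0.51 (edgeR adjusted p = 0.0394), a call that needed all 6 libraries (edgeR adjusted p from 0.068 to 0.115 with 1 left out). Their median log2 fold change was 0.31. Their summed FPKM was 41.73 to 45.43 in the libraries labelled KO and 34.86 to 35.86 in WT, a ratio of 1.23, with no overlap. Over the 23 markers the log2 fold change ran from -0.12 (Cd3d) to 0.84 (Klrd1), neither of them called (edgeR adjusted p = 0.721 and 0.24). Of the defining markers, the CD3 chain gene Cd3e had 0.438 ± 0.0869 FPKM in labelled KO and 0.363 ± 0.0414 FPKM in WT, with overlapping groups. The NK receptor gene Ncr1 had 1.42 ± 0.0786 FPKM in labelled KO and 1.26 ± 0.0446 FPKM in WT, with groups that did not overlap. The sum was thus higher in the libraries labelled KO, as was that of the 7 granzymes, which had a ratio of 1.8, and the markers' part in the granzyme difference was not tested. In RNA from a whole culture, fewer cells of a type and less RNA per cell cannot be told apart.

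Other cells that make granule proteases were read in the same way. Of 13 mast cell and basophil markers, 6 were at 0 in every library, among them the IgE receptor gene Fcer1a and the tryptase gene Tpsb2, and 0 of 4 tested were called. The highest of the 4 was Kit, the stem cell factor receptor, at 0.801 ± 0.0578 FPKM in labelled KO and 0.635 ± 0.107 FPKM in WT (edgeR adjusted p = 0.215; Hdc, next, 0.227). The summed FPKM of the 13 markers was 1.236 to 1.395 in the libraries labelled KO and 1.102 to 1.258 in WT. Of 10 plasmacytoid dendritic cell markers, the defining gene Siglech was at 0 in every library. Of the 6 tested, 2 were called lower, Ptprs by 0.84 (edgeR adjusted p = 0.0053) and Bst2, which other cells express too, by 0.30 (edgeR adjusted p = 0.000284). Over all 14 lists, 136 of 167 genes in the table were tested, and 23 were called higher and 16 lower. Over all genes tested, 7.01% were called higher and 12.7% in either direction. The lists were chosen with earlier results of these data known, so nothing is read from their count.

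**Figure D5:**
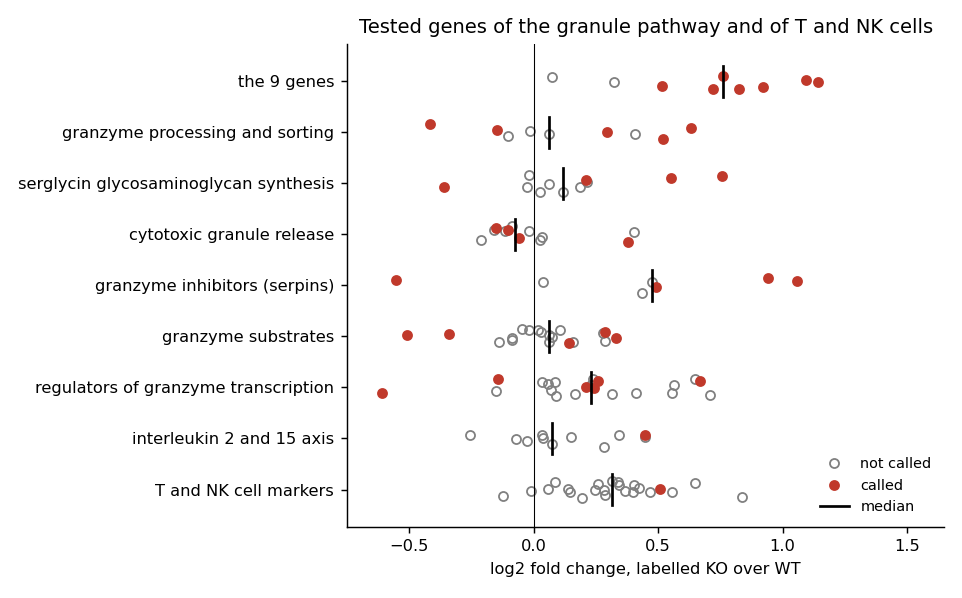
Log2 fold changes, labelled KO over WT, of the tested genes of 8 lists around the 9 granule genes; each circle is a gene, filled where called at an adjusted p under 0.05, and black bars are medians. The median of the 9 genes is 0.76, and those of the 8 lists run from -0.07 for granule release to 0.48 for the serpins.

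The genes whose levels across the 6 libraries were most like the sum of Gzmc to Gzmg were found by Pearson correlation of log2 CPM, as a description over libraries of which 3 carry each label. Hgsnat, a lysosomal acetyltransferase of heparan sulfate breakdown, came first (r = 0.9987), with 68.22, 71.36 and 70.48 FPKM in the libraries labelled KO and 35.27, 36.74 and 35.58 FPKM in WT. It was followed by 2510039O18Rik (r = 0.9986), the transcription factor genes Klf13 (r = 0.9984) and Nfil3 (r = 0.9983), and Igtp, an immunity-related GTPase (r = 0.9982). A high value is common in this design, since 713 genes had r above 0.95.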

How the data were processed

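RNA sequencing of poly(A) RNA from 6 libraries gave a deposited table of 55401 genes with FPKM and estimated counts per library. The submitters' processing notes name mm10 and the tools cutadapt (version 1.9), HISAT2 (version 2.0.4) and StringTie (version 1.3.4d). Settings, annotation release and strand: not given in the sources used here. Per the file headers, the authors deposited FPKM per gene and an estimated count per gene, and a gene with a count of 0 carries an FPKM of 0.0001, read here as 0. Count over FPKM implied 1 length per gene in all libraries (1006 to 1014 bases for Gzma, 2585 to 2596 for Prf1), near the merged exons of GENCODE M21 (1006 and 2584). The FPKM of a gene is therefore not corrected for a change in which of its transcripts is used, and such a change was not tested.

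The 9 genes, the 14 gene lists and the tests were chosen with earlier results of these data known. Groups follow the genotype labels. Estimated counts were rounded and fitted over all genes in R 4.3.3 by edgeR 4.0.16, with its quasi-likelihood test, TMM scaling, no covariate, the filterByExpr function (minimum count 10, minimum total 15) and Benjamini-Hochberg adjustment over 16256 genes and no minimum fold. Called means an adjusted p under 0.05. Each standard error is the log2 fold change divided by the root of F, and levels are FPKM as mean ± SD of 3 libraries. The fit was tested on simulated data. With 3 libraries a group, an exact permutation test cannot go below 0.1, so none is given for a gene. Libraries of a group correlated at 0.9753 to 0.9791 in log2 CPM (prior count 2), and libraries of different groups at 0.9708 to 0.9751. Alternatives were DESeq2 1.42.0, median-of-ratios factors, no filter, the replicate number as a block, each library left out, and limma 3.58.1 on log2(FPKM + 0.1), with pseudocounts of 1 and 0.01 and with no filter in place of a minimum mean FPKM of 0.1.

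Named besides the 9 genes and Mettl3 are up to 4 called genes per list by adjusted p (where none was called, the 2 highest by FPKM), other granzymes and proteases of the chromosome 14 list above 0 in any library, called genes within 1 Mb of the cluster, and the 5 genes most correlated with the sum of Gzmc to Gzmg. Adgre1, Cx3cr1, Mertk, Gm4022, M6pr, Igf2r, Unc13d, Rab27a, Serpinb9, Eomes, Tbx21, Runx3, Cd3d, Cd3e, Klrd1, Ncr1, Siglech, Fcer1a and Tpsb2 were named after their values were seen. Of the genes so chosen, 1 is not reported here. Promoter windows are from RefSeq, with all 9 genes matched by symbol, and coding sequences and transcripts from GENCODE M21. Pairs were aligned globally, and coordinates are those of the deposited table or, for promoters, of RefSeq.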

Additional observations from a re-analysis of the deposited data

How the results depend on the processing

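With all 6 libraries edgeR called 2060 genes, 1139 of them higher in the libraries labelled KO. With any 1 library left out, edgeR called 1244 to 1339 genes, 683 to 744 of them higher; these fits hold fewer samples. With the replicate block edgeR called 1012 genes, 552 of them higher, 22 listed genes in place of 39 and 3 neighbours of the granzyme cluster in place of 6. Same-numbered libraries' deviations from their group means correlated at -0.021, -0.014 and 0.015, so no pairing by replicate number was seen. Deviations over all genes are partly counting noise, so these values cannot show whether same-numbered libraries shared a mouse or batch. Of the 9 granule genes, 6 or 7 were called under each of the 14 other settings and the 9 fold changes kept their sign. The gene that lost its call was Gzma, in 9 settings: no filter on counts, no filter on FPKM, the replicate block and each of the 6 left-out libraries. DESeq2 called 2687 genes and edgeR with no filter 1661.

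Among the other named genes, 16 lost a call in at least 1 setting, 3 not called with all libraries changed sign in fits with 1 library left out, and Ctsg was called by DESeq2 and by limma on log2(FPKM + 1). Over the left-out libraries the log2 fold change ran from -0.07 to 0.11 for Mettl3 (-0.055 without KO replicate 3, -0.066 without WT replicate 3), from -0.084 to 0.48 for Gzmm (-0.024 without KO replicate 2) and from -0.016 to 0.74 for Mcpt8 (-0.005 without WT replicate 3); the cause was not tested. Gzmk, Gzmm, Ctsg and Mcpt8 rest on 4 to 111 estimated counts per library.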
